A study of Homo sapiens with 2 samples.

Results

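Open chromatin was compared at 5 homeobox gene loci, the HOXA cluster, MEIS1, NKX2-1, TLX3 and TLX1, in the human T-ALL cell lines RPMI-8402 and Jurkat. T-ALL, T-cell acute lymphoblastic leukaemia, is a cancer of immature T cells, and both lines belong to its TAL1/LMO class. ATAC-seq, in which Tn5 transposase cuts accessible DNA, was run on 1 library of each line, cultured in RPMI-1640 medium with serum free of tetracycline, and the labels name no drug or genetic change. A peak counted as a member when its summit lay within a fixed window on hg19, whatever its strength. The windows were chr7:27100000-27300000 for the HOXA cluster, chr2:66630000-66830000 for MEIS1, chr14:36960000-37010000 for NKX2-1, chr5:170710000-170760000 for TLX3 and chr10:102860000-102920000 for TLX1. They held 13 of 24603 peaks in RPMI-8402 and 9 of 25189 in Jurkat on chromosomes 1 to 22, X and Y. With 1 library per line no value has a replicate error and no difference between the lines was tested. The intervals cover counting error only, and copies made by PCR would make them too narrow.

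HOXA9, HOXA10 and HOXA13 are transcription factors with a DNA-binding homeodomain, encoded at the end of the HOXA cluster that patterns the posterior body, and HOXA9 and HOXA10 also act in blood progenitors. MEIS1 is a homeodomain partner that binds DNA together with HOX proteins. TLX1 and TLX3 are homeobox genes that are silent in normal T cells and define T-ALL classes of their own when a chromosomal rearrangement turns them on. NKX2-1 guides thyroid and lung development and is turned on by rearrangement in another subset of T-ALL. HOXA genes are likewise raised in T-ALL with particular rearrangements or fusion genes. Accessibility alone does not show whether a gene is transcribed, and RNA was not analysed here.

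In RefSeq's order of protein-coding genes (GRCh38.p14), HOXA9, HOXA10, HOXA11 and HOXA13 follow one another at the higher end of the HOXA cluster, and EVX1 comes next. MEIS1 lies between SPRED2 and ETAA1, NKX2-1 between MBIP and NKX2-8, TLX3 between RANBP17 and NPM1, and TLX1 between KAZALD1 and LBX1. Peak positions are on hg19, so no peak was placed against an exon, intron, UTR or gene start.

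The promoter sequences of NKX2-1, MEIS1 and TLX3 are shown because these are the loci where RPMI-8402 had the stronger signal. They are RefSeq sequences on GRCh38.p14, read 5′ to 3′ on the gene's strand from 250 bases before to 50 bases after a transcript start, with every CG dinucleotide in capitals. They were not read from the peaks. The 2 starts of NKX2-1 lie in chr14:36520183-36520482 and chr14:36519507-36519806, both on the minus strand. The start of MEIS1 lies in chr2:66434875-66435174 and that of TLX3 in chr5:171308998-171309297, both on the plus strand.
NKX2-1 start A: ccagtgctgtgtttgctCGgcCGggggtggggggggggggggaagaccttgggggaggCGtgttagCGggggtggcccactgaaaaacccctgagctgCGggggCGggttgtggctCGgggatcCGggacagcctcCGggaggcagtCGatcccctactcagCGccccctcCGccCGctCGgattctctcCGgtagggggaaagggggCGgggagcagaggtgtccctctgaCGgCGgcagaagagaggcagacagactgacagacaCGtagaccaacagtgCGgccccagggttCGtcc
NKX2-1 start B: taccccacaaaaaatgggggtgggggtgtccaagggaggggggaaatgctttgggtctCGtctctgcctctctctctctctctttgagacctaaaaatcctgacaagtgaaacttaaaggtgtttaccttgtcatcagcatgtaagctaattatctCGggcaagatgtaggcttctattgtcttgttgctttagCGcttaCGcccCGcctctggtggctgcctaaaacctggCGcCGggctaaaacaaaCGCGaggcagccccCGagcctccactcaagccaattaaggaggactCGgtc
MEIS1: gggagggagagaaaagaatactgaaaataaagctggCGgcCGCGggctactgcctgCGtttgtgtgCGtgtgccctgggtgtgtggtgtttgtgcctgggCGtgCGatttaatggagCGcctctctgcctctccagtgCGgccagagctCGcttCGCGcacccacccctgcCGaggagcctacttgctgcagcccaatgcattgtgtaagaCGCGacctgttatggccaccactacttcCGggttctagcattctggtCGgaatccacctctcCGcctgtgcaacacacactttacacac
TLX3: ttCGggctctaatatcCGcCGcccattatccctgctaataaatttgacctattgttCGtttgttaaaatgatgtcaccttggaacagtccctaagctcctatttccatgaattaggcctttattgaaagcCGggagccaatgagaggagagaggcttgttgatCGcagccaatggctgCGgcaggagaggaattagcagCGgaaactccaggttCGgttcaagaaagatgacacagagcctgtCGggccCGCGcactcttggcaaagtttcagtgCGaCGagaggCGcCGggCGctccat

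All 7 of 7 genes had an entry, with 9 starts in all. The number of CG dinucleotides was 21 at start A and 11 at start B of NKX2-1, 18 at MEIS1 and 17 at TLX3, against a median of 14 over 35116 promoters. HOXA13 had the most of the 9 starts, 44, more than 95.8% of all promoters. HOXA9 had 22, the 2 starts of HOXA10 had 21 and 25, and TLX1 had 18. The GATA letters AGATAA, searched on both strands, were found at start B of NKX2-1 and at none of the other 8 starts, and 10.3% of all promoters hold them. The E-box letters CAGATG were found in the TLX1 promoter alone of these starts, and 14.7% of all promoters hold them. The letters TGACAG, a MEIS-type sequence, were found at HOXA13, TLX1 and start A of NKX2-1, against 15.8% of all promoters. The letters TGTGGT, a RUNX-type sequence, were found at MEIS1 alone, against 13.1%. The open form of the E-box, CANNTG, which includes CAGATG, was found at HOXA9, TLX1 and start B of NKX2-1 and in 68.7% of all promoters. These matches describe the letters only and say nothing about binding.

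Both lines were accessible in the HOXA cluster, RPMI-8402 alone had peaks at NKX2-1, and RPMI-8402 had the stronger signal at MEIS1 and TLX3. Both lines had little at TLX1. Of the RPMI-8402 peaks, 7 of 13 overlapped a Jurkat peak by at least 1 bp, 53.8% (95% exact binomial interval 25.1 to 80.8%), beside 68.1% of all RPMI-8402 peaks. Of the Jurkat peaks, 7 of 9 overlapped a RPMI-8402 peak, 77.8% (39.99 to 97.2%), beside 67.4% of all Jurkat peaks. Both intervals contain the share of the whole list, so at this number of peaks neither share could be told from it. The 5 windows together held 12453 bp of peaks in RPMI-8402 and 6207 bp in Jurkat. Outside the HOXA cluster, peaks covered 7998 bp in RPMI-8402 and 1708 bp in Jurkat, while within it they covered 4455 bp in RPMI-8402 and 4499 bp in Jurkat. Most of the RPMI-8402 bases outside the cluster lay at MEIS1, 3892 bp, and NKX2-1, 2875 bp. All peaks of each list covered 18.4 Mb in RPMI-8402 and 16.8 Mb in Jurkat.

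**Figure D1:**
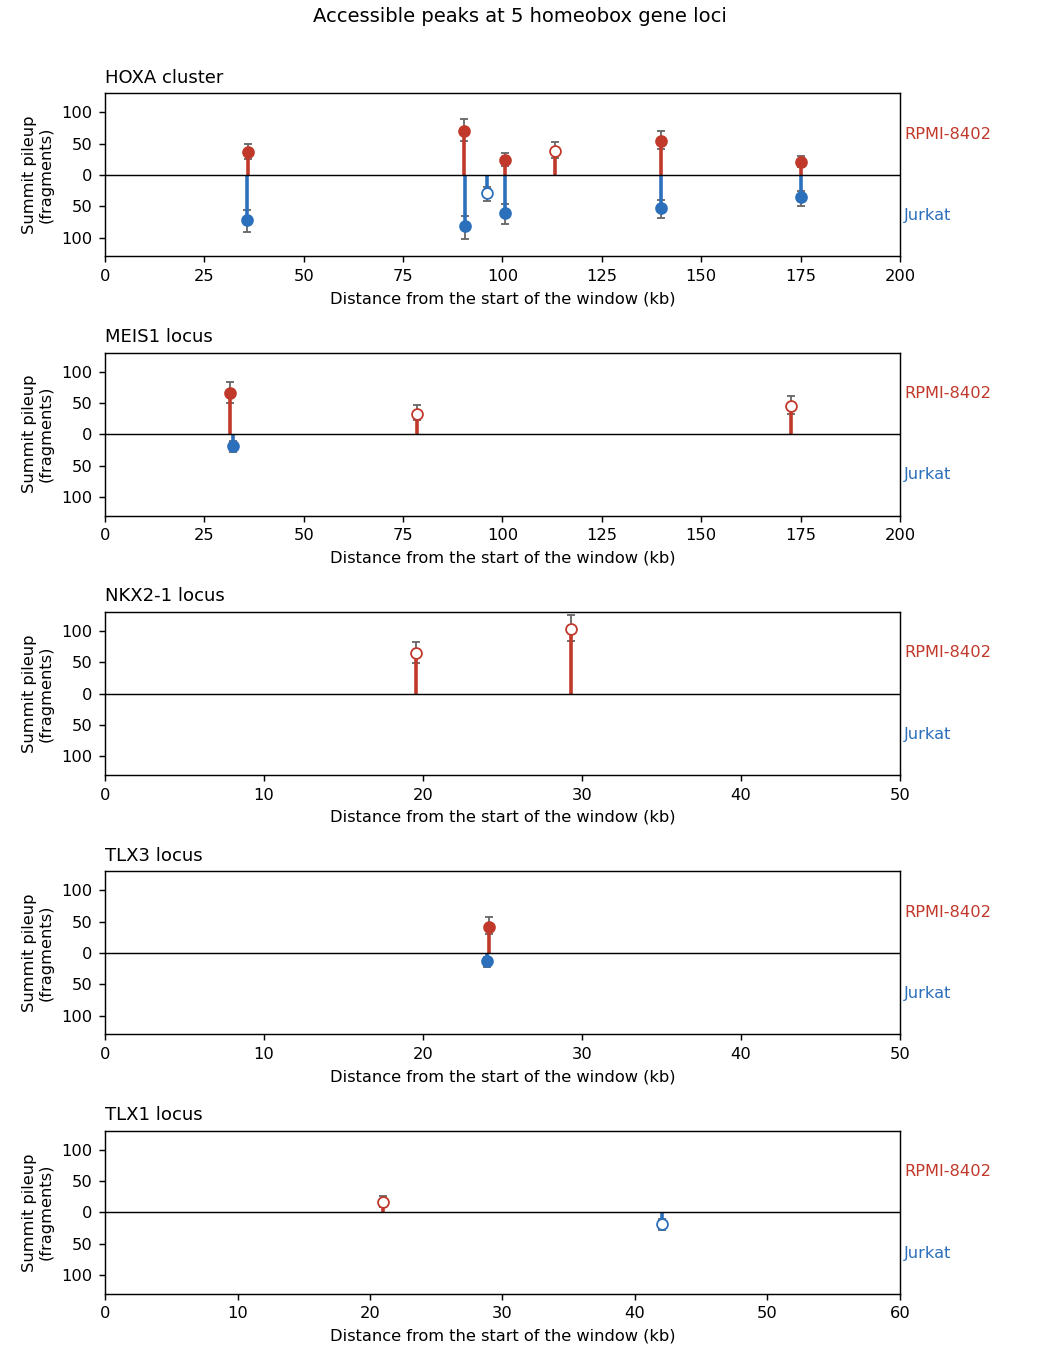
Summit pileup, in fragments, of every peak at the 5 loci against distance from the start of each window in kb, with RPMI-8402 above and Jurkat below the zero line and 95% Poisson intervals. Filled points overlap a peak of the other line and open points do not; the HOXA cluster shows 5 shared sites, and the NKX2-1 locus shows 2 peaks in RPMI-8402 and 0 in Jurkat.

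The signal given below is the summit pileup, the number of fragments that cover the highest base of a peak, solved from the fold enrichment and p-value that the authors' peak caller gave. Its median over all peaks was 38 in RPMI-8402 and 37 in Jurkat, and the weakest called summit had 10 fragments in RPMI-8402 and 9 in Jurkat. The local background is the number of fragments per base that the peak caller set each summit against, and it is given as a multiple of the library's lowest value, 1.96 in RPMI-8402 and 1.59 in Jurkat. MACS2 is known to take that background from a wide window around a peak, so it rises with all fragments nearby, whatever their source, those of the peak included. Ratios between lines are RPMI-8402 over Jurkat, divided by the median ratio of all 16494 pairs of overlapping peaks, a median of −0.17 on the log2 scale.

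The NKX2-1 locus had 2 peaks in RPMI-8402 and 0 in Jurkat. The stronger RPMI-8402 peak, chr14:36988122-36990124, was covered at its summit by 103 fragments (95% Poisson interval 84.1 to 124.9) and was enriched 5.32-fold. It was 2003 bp wide, wider than 99.6% of the peaks in the RPMI-8402 list and than 98.7% of the 1458 with a pileup within 10% of its own. The local background there was 9.49 times the lowest value, the highest multiple of any member peak. The other RPMI-8402 peak, chr14:36978994-36979865, had a pileup of 64 (49.3 to 81.7), was enriched 10.02-fold and spanned 872 bp. Both lay in the eighth of 10 classes of RPMI-8402 peaks by −log10 q, where 92.3% of peaks had a Jurkat partner. Of all RPMI-8402 peaks, 4.15% had a pileup of at least 40 and no Jurkat partner, and among the members 3 of 13 did, these 2 and 1 at MEIS1.

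The nearest Jurkat peaks lay far outside the NKX2-1 window, at chr14:36843210-36843478 and chr14:37125190-37125555, 135515 bp below the lower and 135065 bp above the higher RPMI-8402 peak. The genome held 21923 windows of 50 kb with at least 1 peak, of which 427 had 2 or more RPMI-8402 peaks and 0 Jurkat peaks, 1.95%. The reverse, 2 or more Jurkat peaks and 0 of RPMI-8402, was found in 484 windows. The surrounding region was also shifted towards RPMI-8402. Within 5 Mb on either side there were 79 RPMI-8402 and 44 Jurkat peaks. The 36 pairs there had a median centred log2 ratio of 0.60 (25th to 75th percentile 0.39 to 1.03). The nearest shared sites below and above the window had pileups of 24 and 28 in RPMI-8402, against 13 and 19 in Jurkat. Their centred ratios were 2.08 (1.02 to 4.44) and 1.66 (0.894 to 3.14). The copies of this region in each line, and the part of that shift in the calls at NKX2-1, were not tested.

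At MEIS1, RPMI-8402 had 3 peaks and Jurkat 1, and the site both shared was stronger in RPMI-8402. Of 10936 windows of 200 kb with at least 1 peak, 32.9% held at least 3 RPMI-8402 peaks. In 10.4% of the 10936, RPMI-8402 exceeded Jurkat by at least as many peaks as at MEIS1. The shared site had a pileup of 65 (50.2 to 82.8) in RPMI-8402, at chr2:66660574-66662468, against 18 (10.7 to 28.4) in Jurkat, at chr2:66661386-66662387. The intervals of these 2 pileups did not overlap. The centred ratio was 4.06 (95% exact interval 2.38 to 7.28). The site was also wider in RPMI-8402, 1895 bp against 1002 bp in Jurkat, a ratio of 1.89. In each line it was broad for its height. It exceeded 99.1% of RPMI-8402 peaks and 99.7% of Jurkat peaks with a pileup within 10% of its own.

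The fold enrichments of the shared MEIS1 site lay closer together than its pileups, 5.997-fold in RPMI-8402 and 5.34-fold in Jurkat. The local background was 5.12 times the lowest value in RPMI-8402 and 1.61 times in Jurkat. On the deposited fold the centred log2 ratio was 0.41, against 2.02 on the pileup. The summits lay 663 bp apart, the largest distance among the 7 shared sites and well above the median of 67 bp over all pairs. The 2 pileups, and so the centred ratio of 4.06, were therefore read at different bases of the overlapping peaks.

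The other MEIS1 peaks were called in RPMI-8402 alone. One, chr2:66801969-66803409, had a pileup of 45 (32.8 to 60.2), a 6.40-fold enrichment and a width of 1441 bp, wider than 96.2% of the RPMI-8402 list. The other, chr2:66708235-66708790, had a pileup of 33 (22.7 to 46.3), a 9.92-fold enrichment and a width of 556 bp. Their nearest Jurkat peak was the shared site itself, 139581 bp from the wide peak and 45847 bp from the narrow one. In their class of RPMI-8402 peaks by −log10 q, the sixth of 10, 76.5% had a Jurkat partner. The region around MEIS1 was not shifted in the same way. The 87 pairs within 5 Mb had a median centred log2 ratio of 0.05 (−0.25 to 0.36), with 118 RPMI-8402 and 110 Jurkat peaks. The nearest shared sites, 68.1 kb below and 794.5 kb above the window, had centred ratios of 0.954 (0.606 to 1.49) and 1.06 (0.799 to 1.41).

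TLX3 carried 1 site, called in both lines and stronger in RPMI-8402. Its pileup was 42 (30.3 to 56.8) in RPMI-8402, at chr5:170733663-170734551, against 13 (6.92 to 22.2) in Jurkat, at chr5:170733980-170734264. The intervals of the pileups did not overlap, and the centred ratio was 3.63 (1.91 to 7.38). The deposited enrichment was 9.01-fold in RPMI-8402 and 4.42-fold in Jurkat, a centred log2 ratio of 1.27. The peak was 889 bp wide in RPMI-8402 and 285 bp in Jurkat, a ratio of 3.12. The Jurkat peak was among the weakest of its list, in the lowest of 10 classes by −log10 q, and stronger than 4.49% of Jurkat peaks. The 53 pairs within 5 Mb had a median centred log2 ratio of −0.25 (−0.80 to 0.33). Below the window, the nearest shared site was 601.8 kb away. Its pileups were 33 in RPMI-8402 and 29 in Jurkat, a centred ratio of 1.28 (0.754 to 2.19). Above the window, the nearest shared site was 54.8 kb away, at chr5:170814259-170815539 in RPMI-8402. It had pileups of 95 in RPMI-8402 and 121 in Jurkat, a centred ratio of 0.883 (0.668 to 1.17).

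TLX1 had 1 weak peak in each line, and these did not overlap. The RPMI-8402 peak, chr10:102880859-102881200, had a pileup of 16 (9.15 to 26.0) and was enriched 4.81-fold. The Jurkat peak, chr10:102901816-102902236, had a pileup of 18 (10.7 to 28.4) and was enriched 5.88-fold. They lay 20615 bp apart. In their classes by −log10 q, the second of RPMI-8402 and the third of Jurkat, 37.7% of RPMI-8402 and 42.6% of Jurkat peaks had a partner. The peak lists hold no signal below the calling threshold, so whether either site was open in the other line was not tested. No difference between the lines at TLX1 was established. The nearest peaks outside the window were not all shared. Below it, the nearest RPMI-8402 peak, chr10:102822054-102822411, had a pileup of 50 and no Jurkat partner, and the nearest shared site had pileups of 108 in RPMI-8402 and 134 in Jurkat. Above it, the nearest peaks of the lines did not overlap, and the nearest shared site, 193.7 kb away, had pileups of 146 in RPMI-8402 and 187 in Jurkat.

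The HOXA cluster had 6 peaks in each line, and 5 of the 6 were shared. Of all 200-kb windows holding at least 1 peak, the median was 2 peaks per line, and 6.72% held at least 6 RPMI-8402 peaks and 8.46% at least 6 Jurkat peaks. Between shared sites 1 and 2, counted from the lower end, 53.7 kb in RPMI-8402 and 53.3 kb in Jurkat held no peak, and in each line 5 of the 6 peaks lay above that gap. Of 10 bins of 20 kb, the same 5 held peaks in both lines and the other 5 held none in either. Each of the 5 bins with peaks held a shared site. The unshared peak of each line lay in such a bin, so the bins do not show it. No peak lay beyond site 5 in the window, and the next site above it was 402.6 kb past the window's end in each line.

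The 5 shared HOXA sites are numbered 1 to 5 from the lower to the higher end. Sites 1 and 3 had a lower pileup in RPMI-8402 than in Jurkat beyond counting error, and sites 2, 4 and 5 did not differ beyond it once centred. Site 1 had a pileup of 36 (25.2 to 49.8) in RPMI-8402, at chr7:27135676-27136263, against 72 (56.3 to 90.7) in Jurkat, at chr7:27135313-27136629. Its centred ratio was 0.562 (0.366 to 0.850), and it was 588 bp wide in RPMI-8402 and 1317 bp in Jurkat. Its local background was 1.52 times the lowest value in RPMI-8402 and 3.50 times in Jurkat. The deposited enrichment was 9.32-fold in RPMI-8402 and 11.1-fold in Jurkat, a centred log2 ratio of −0.02. Site 2, the highest HOXA site in each line, had a pileup of 70 (54.6 to 88.4) in RPMI-8402, at chr7:27189939-27191071, against 82 (65.2 to 101.8) in Jurkat, at chr7:27189954-27190892. Its centred ratio of 0.960 (0.688 to 1.34) did not differ from 1 beyond counting error. That holds for the centred scale, and the ratio depended on the scaling. Unscaled it was 0.854 (0.612 to 1.19). Scaled by the lowest background of each list, the log2 ratio at site 2 was −0.53, and no interval was calculated on that scale.

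HOXA site 3 had the centred ratio farthest from 1 of the 5. Its pileup was 23 (14.6 to 34.5) in RPMI-8402, at chr7:27200318-27200861, against 61 (46.7 to 78.4) in Jurkat, at chr7:27200293-27200835. The centred ratio was 0.424 (0.251 to 0.695), although the peak was nearly the same width, 544 bp in RPMI-8402 and 543 bp in Jurkat. The local background was 1.18 times the lowest value in RPMI-8402 and 3.65 times in Jurkat. On the deposited fold the lines were close, 7.26-fold in RPMI-8402 and 9.12-fold in Jurkat, a centred log2 ratio of −0.09.

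HOXA site 4 had a pileup of 54 (40.6 to 70.5) in RPMI-8402, at chr7:27239380-27240134, against 53 (39.7 to 69.3) in Jurkat, at chr7:27239538-27240167, a centred ratio of 1.15 (0.770 to 1.71). Site 5 had a pileup of 20 (12.2 to 30.9) in RPMI-8402, at chr7:27274867-27275429, against 36 (25.2 to 49.8) in Jurkat, at chr7:27274964-27275579, a centred ratio of 0.625 (0.343 to 1.11). Unscaled, the ratio at site 5 was 0.556 (0.305 to 0.986), with an interval below 1. Site 4 turned to a log2 ratio of −0.27 when scaled by the lowest background of each list. The summits of the 5 sites lay 15 to 115 bp apart between the lines. Their median centred log2 ratio was −0.68, and that of the 55 pairs within 5 Mb was −0.20 (−0.64 to 0.21). On the deposited fold the median of the 5 was −0.09. The nearest shared site above the window, 402.6 kb away, was also lower in RPMI-8402 beyond counting error. Its pileups were 116 in RPMI-8402 and 177 in Jurkat, a centred ratio of 0.737 (0.578 to 0.937). The nearest one below the window, 661.6 kb away, had pileups of 26 and 21, a centred ratio of 1.39 (0.754 to 2.60).

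One HOXA peak in each line had no partner, and both lay between sites 2 and 4. The RPMI-8402 peak, chr7:27212669-27213540, had a pileup of 38 (26.9 to 52.2), was enriched 8.80-fold, spanned 872 bp and lay 11833 bp from the nearest Jurkat peak. The Jurkat peak, chr7:27195884-27196337, had a pileup of 29 (19.4 to 41.6), a 4.13-fold enrichment and a width of 454 bp, and lay 3980 bp from the nearest RPMI-8402 peak. It stood between sites 2 and 3, on a local background of 3.95 times the lowest value. In the matching classes by −log10 q, 76.5% of RPMI-8402 peaks and 42.6% of Jurkat peaks had a partner.

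**Figure D2:**
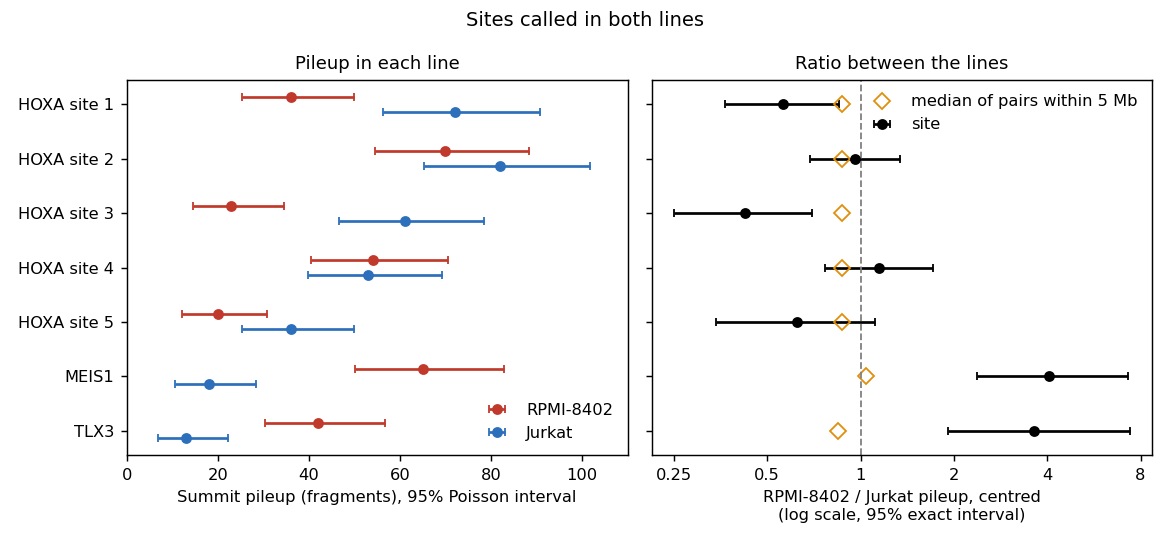
The 7 sites called in both lines, with HOXA sites numbered 1 to 5 from the lower end: summit pileup in fragments with 95% Poisson intervals (left, RPMI-8402 drawn above Jurkat at each site) and centred ratio of RPMI-8402 to Jurkat on a log scale with 95% exact intervals (right). Diamonds give the median ratio of pairs within 5 Mb; MEIS1 and TLX3 lie at 4.06 and 3.63, while the 5 HOXA sites lie between 0.424 and 1.15.

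Across the loci, shared sites differed in both directions. Of the 7 shared sites, 2 were at least 2-fold higher in RPMI-8402, at MEIS1 and TLX3, and 9.21% of all pairs were. Of the 7, HOXA site 3 alone was at least 2-fold lower in RPMI-8402, and 4.97% of all pairs were. These counts changed with the scaling. Unscaled, 2 sites were at least 2-fold higher in RPMI-8402 and 2 lower, HOXA sites 1 and 3, beside 6.86% and 8.55% of all pairs. Scaled by the lowest background, 2 were higher and 3 lower, HOXA sites 1, 3 and 5, beside 3.29% and 18.6% of all pairs. On the deposited fold, TLX3 alone was at least 2-fold higher and 0 sites were lower, beside 1.38% and 0.315% of all pairs. The RPMI-8402 peak was at least 1.5 times as wide as its Jurkat partner at MEIS1 and TLX3, 2 of 7 sites, beside 12.7% of all pairs. At HOXA site 1 the Jurkat peak was the wider, with a ratio of RPMI-8402 to Jurkat width of 0.446. The share of all pairs with such a wider Jurkat peak was not counted. With 7 sites these counts describe the loci and were not tested. The median centred log2 ratio over the 7 sites was −0.06, the value of HOXA site 2.

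**Figure D3:**
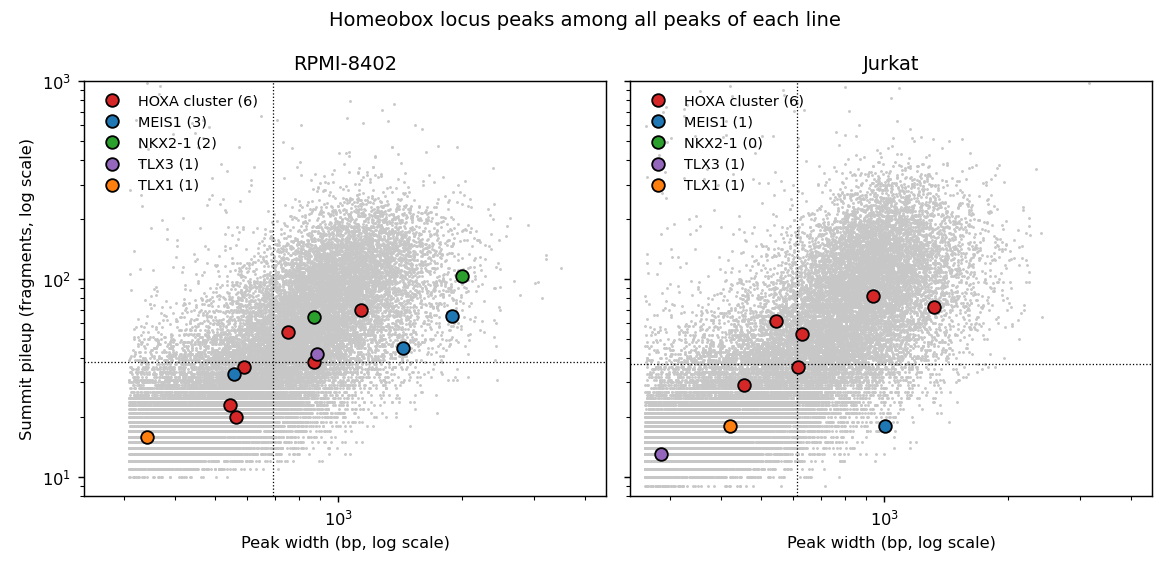
Width in bp and summit pileup in fragments, both on log scales, of all peaks (grey) and of the peaks at the 5 loci (coloured) in RPMI-8402 (left) and Jurkat (right), with dotted lines at each list's medians; 19 RPMI-8402 and 26 Jurkat peaks fall outside the axes. The 2003-bp NKX2-1 peak and the 1895-bp MEIS1 peak of RPMI-8402 lie at the wide edge of the list.

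The strongest by −log10 q in RPMI-8402 was HOXA site 2 at 43.1, stronger than 74.4% of that list, followed by the NKX2-1 peaks at 42.0 and 38.9. The strongest in Jurkat was the same HOXA site at 59.7, stronger than 76.9% of that list, and the next 4 were HOXA sites as well, at 50.5, 37.7, 36.6 and 28.4. Outside the HOXA cluster, the Jurkat members had −log10 q of 8.86 at TLX1, 7.90 at MEIS1 and 4.74 at TLX3. Those of RPMI-8402 ranged from 6.32 at TLX1 to 42.0 at NKX2-1. The median pileup of the members outside the cluster was 45 in RPMI-8402 (7 peaks) and 18 in Jurkat (3 peaks), and within the cluster it was 37 in RPMI-8402 and 57 in Jurkat (6 peaks each). These medians are unscaled and do not cover the same sites in the 2 lines. Outside the cluster, 5 RPMI-8402 peaks and 1 Jurkat peak had no partner.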

How the data were processed

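ATAC-seq peak lists of 2 cell lines, 1 library each, were used as deposited. Per the submitters' processing notes, the build was hg19 and the tools MACS2 2.1.1.2016030, SAMtools, Picard and Bowtie2, and no roles or parameters are listed. Each deposited list gives positions, a score equal to 10 times −log10 p, a fold enrichment ratio over background, and −log10 p and −log10 q, all as the authors' peak caller wrote them. Peaks were called per library. Depth in fragments is not stated for either library, and the solved background is the only measure of it.

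The pileup and background of each peak were solved from fold and p with MACS2's known formulas, the ratio of pileup plus 1 to background plus 1 and the Poisson upper tail. The pileup came out whole within 0.05 in 100% of peaks in each list. Overlap meant at least 1 bp, and pairs were one-to-one. Python 3.11.15, numpy 2.4.6, scipy 1.17.1 and pandas 2.3.3 were used. The solving of pileups, the finding of overlaps and the ratio interval were tested on simulated data, and the other steps were not. The simulated fold and p came from the same formulas, so that test could not check the formulas themselves. Every member peak is described: the rule named the 5 strongest per locus and line, unshared peaks with a pileup of at least 40 and pairs past 2-fold. The windows, lists and alternatives were chosen with earlier results of these data known. Placing peaks against genes and reading their sequence need an hg19 genome and were not done.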

Additional observations from a re-analysis of the deposited data

How the results depend on the processing

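Requiring −log10 q of at least 10 left 12 peaks at the 5 loci in RPMI-8402 and 5 in Jurkat. It removed the Jurkat peaks at MEIS1, TLX3 and TLX1 and the unshared one in the HOXA cluster, put the share of Jurkat peaks with a partner at 100%, and moved the median centred log2 ratio to −0.64, since the pairs left were all HOXA sites. The 10000 strongest peaks of each list included 5 RPMI-8402 and 4 Jurkat members. The other alternatives kept each result within its interval or within 1.5 times its count. Among them, the median log2 ratio was −0.23 unscaled, −0.53 scaled by the lowest background, −0.02 on the deposited fold and 0.14 relative to pairs within 5 Mb. Scaled by the lowest background, the log2 ratio was 1.55 at MEIS1, 1.39 at TLX3 and −1.15 as the median of the HOXA sites, and −0.47 over all pairs. A reciprocal overlap of 50% left 38.5% of RPMI-8402 and 55.6% of Jurkat members with a partner. Widening the windows by 20 kb added 1 peak, in RPMI-8402 near NKX2-1 (pileup 13). No paired analysis was possible because a line is represented by 1 library, and no replicate could be left out.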
